A study of Mus musculus with 16 samples.

Results

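Astrocytes and oligodendrocytes are the glial cells that radial glia of the embryonic brain produce after most neurons. The 10 genes described here mark their lineages: Olig1, Olig2, Pdgfra, Aldh1l1, Slc1a2, Slc1a3, Gfap, S100b, Aqp4 and Fabp7. They were taken by symbol from the numeric gene IDs of the deposited count tables, where all 10 were found among 20113 promoters and again among 20113 windows downstream of the transcription end (gene ends below). All 10 promoters and all 10 gene ends passed the filter on low counts.

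Open chromatin was measured by ATAC-seq, which reads the places a transposase can reach, in 16 libraries of neural stem and progenitor cells. The cells had been taken at E12.5 from mouse dorsal telencephalon and grown as neurospheres, and 50000 of them went into each library. The question was what loss and gain of KAT6B, a histone acetyltransferase, do to accessibility. The 4 groups were 4 wild-type embryos on C57BL/6 (WT C57BL/6), 4 homozygous Kat6b-/- knockout embryos on C57BL/6 (KO), 4 wild-type embryos of a hybrid of the FVB and BALB/c strains (WT FVB x BALB/c) and 4 embryos of that hybrid that carry the Tg(Kat6b) transgene (Tg). The hybrid background was used because, per the design text, the transgene is not viable on C57BL/6, so gain of KAT6B was studied on the hybrid alone. The labels do not say which promoter drives the transgene or whether embryos shared a litter.

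As background, OLIG1 and OLIG2 are basic helix-loop-helix factors that direct oligodendrocyte precursors, and Pdgfra encodes the receptor through which platelet-derived growth factor keeps those precursors dividing. In radial glia, Fabp7 encodes a brain fatty acid-binding protein, and Slc1a3 encodes the glutamate transporter GLAST. Astrocytes later make the glutamate transporter GLT-1 (Slc1a2), the folate enzyme ALDH1L1, the intermediate filament GFAP, the calcium-binding protein S100B and the water channel aquaporin 4 (Aqp4), most of which the cortex expresses later than the age sampled.

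RefSeq promoter sequences (250 bases before to 50 after the start, build GRCm38.p6) were available for 8 of the 10 genes. The reads had been counted on mm39 in windows whose coordinates the tables do not carry, so these sequences were matched to the counts by gene and not by position. They are shown for 4 genes, with every CpG in capitals: the promoters of the highest member (Olig2) and of the next highest (Fabp7), and of Aldh1l1 and S100b, which were lower in Tg. The windows lie at chr16:91225300-91225599 (Olig2), chr10:57784673-57784972 (Fabp7), chr6:90550543-90550842 (Aldh1l1) and chr10:76253586-76253885 (S100b), all on the plus strand.
Olig2: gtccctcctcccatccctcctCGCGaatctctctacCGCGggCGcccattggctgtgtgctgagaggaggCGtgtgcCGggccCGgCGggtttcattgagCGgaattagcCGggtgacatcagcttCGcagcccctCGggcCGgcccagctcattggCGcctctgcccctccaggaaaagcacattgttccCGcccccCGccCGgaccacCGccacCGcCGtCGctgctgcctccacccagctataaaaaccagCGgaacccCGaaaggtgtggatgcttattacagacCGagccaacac
Fabp7: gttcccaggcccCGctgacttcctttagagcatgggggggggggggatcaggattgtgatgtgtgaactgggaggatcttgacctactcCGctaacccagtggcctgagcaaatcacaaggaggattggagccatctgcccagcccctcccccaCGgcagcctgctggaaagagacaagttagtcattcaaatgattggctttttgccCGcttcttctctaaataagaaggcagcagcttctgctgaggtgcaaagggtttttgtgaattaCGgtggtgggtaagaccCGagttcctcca
Aldh1l1: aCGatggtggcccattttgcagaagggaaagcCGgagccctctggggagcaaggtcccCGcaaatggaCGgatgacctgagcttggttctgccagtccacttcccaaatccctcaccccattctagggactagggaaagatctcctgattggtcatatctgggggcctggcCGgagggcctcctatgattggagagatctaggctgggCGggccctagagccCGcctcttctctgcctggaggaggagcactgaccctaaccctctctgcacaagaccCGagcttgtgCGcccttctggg
S100b: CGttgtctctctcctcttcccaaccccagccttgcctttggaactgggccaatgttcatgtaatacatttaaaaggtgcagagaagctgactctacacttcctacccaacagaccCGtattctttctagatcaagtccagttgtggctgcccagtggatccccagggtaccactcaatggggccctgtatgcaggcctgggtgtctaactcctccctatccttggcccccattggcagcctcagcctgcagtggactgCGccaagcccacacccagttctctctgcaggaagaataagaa
The Olig2 window held 25 CpGs, an observed-over-expected CpG ratio of 0.82. Fabp7 held 6 (ratio 0.28), Aldh1l1 9 (0.33) and S100b 3 (0.14). The other windows were also poor in CpG: Pdgfra held 5 (0.26), Slc1a3 3 (0.20), Gfap 3 (0.13) and Slc1a2 1 (0.06). The Slc1a2 window starts at a transcript 48199 bp inside the gene boundary and the Pdgfra window at one 929 bp inside it, so they may not be the starts that were counted. Olig2 was thus the only member of the 8 with a ratio of at least 0.6, a level reached by 51.7% of the 15940 promoters with a sequence and a test. Across those 15940, promoters at or above that ratio had a median accessibility of 65.6 CPM (counts scaled to library size) in WT C57BL/6 and promoters below it 8.9. Fabp7 stood at 128 CPM with a ratio of 0.28, far above the median of the CpG-poor class.

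Short motifs were searched on both strands of the same 300 bases. The CCAAT box (CCAAT, NF-Y) occurred in 5 of 8 members (Olig2, Aldh1l1, Slc1a3, S100b and Fabp7) and in 38.9% of all promoters searched. The GC box (GGGCGG) occurred in 3 of 8 (Olig2, Aldh1l1 and Slc1a3; 49.4% of all), the RBPJ site (TGGGAA) in 4 (Aldh1l1, Gfap, S100b and Fabp7; 24.0%) and the TATA box (TATAAA) in 2 (Olig2 and Slc1a3; 12.8%). The STAT site (TTCNNNGAA) occurred in Gfap and Slc1a3, and in 7.8% of all promoters. The E-box CAGATG, a form that OLIG proteins bind, occurred in Pdgfra and Fabp7 (14.3% of all). The NFI site (TTGGCA) occurred in S100b (13.1%), where it overlaps a CCAAT match on the other strand. The SOX (ACAAAG, 16.4%) and AP-1 (TGANTCA, 7.1%) letters were in none of the 8 windows. These are matches of letters, not sites shown to be bound.

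Promoter totals ran from 1384643 to 5015408 counts per library and gene-end totals from 198347 to 489743. Tg libraries were the deepest (4023140 to 5015408 promoter counts, against 1384643 to 3101439 in WT FVB x BALB/c). The Kat6b promoter held 12533 to 16450 counts in Tg against 338 to 747 in WT FVB x BALB/c, and 770 to 1073 in KO against 597 to 707 in WT C57BL/6, so that window does not check the knockout. Counts on chromosome Y in enhancer regions stood at 0.458 to 9.01 CPM in Tg and at 34.2 to 61.3 in the other 12 libraries, so in the Tg comparison the Y signal moved with the genotype, and its part in the results was not tested. Summed promoter accessibility of 9 neural progenitor markers was 1023 to 1080 CPM in WT C57BL/6, 1140 to 1172 in KO, 872 to 939 in WT FVB x BALB/c, and 1220 to 1292 for Tg. The highest of them was Vim in WT FVB x BALB/c and Hes1 in the other groups. The 8 microglia and leukocyte markers summed to 42.9 to 81.3 over all libraries, with Spi1 the highest in each group (group means of 8.97 to 11.05). The 8 mesenchymal and meningeal markers, which include genes active in Pdgfra-expressing fibroblasts, summed to 263 to 287, 253 to 270, 232 to 243 and 218 to 233 in the same order of groups. In that order, neuron markers summed to 306 to 350, 267 to 287, 245 to 272 and 252 to 262.5 CPM. Endothelial markers summed to 123 to 137, 114 to 129.5, 119 to 126 and 92.3 to 107 CPM. Erythroid markers summed to 82.0 to 115.5, 90.2 to 106, 104 to 118 and 74.8 to 83.7 CPM. No marker was at 0 in any group. In chromatin of mixed cells, a site open in fewer cells and a site less open in each cell cannot be told apart.

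At baseline, the transcription factor Olig2 and the radial glial gene Fabp7 were the most accessible of the 10 promoters, and the water channel gene Aqp4 was nearly closed. All 10 promoter windows were 2001 bp long, so their CPM, scaled with TMM factors, can be compared between genes. In WT C57BL/6, Olig2 stood at 172 ± 6.37 CPM (SD, n = 4), above 97.1% of promoters, Fabp7 at 128 ± 4.67 and Olig1 at 111 ± 6.10. Slc1a2 followed at 75.0 ± 2.79. These 4 promoters lay above the median of all promoters, 35.1 CPM, and none of them overlapped the next in the order between libraries. Aldh1l1 (32.2 ± 1.82) and Slc1a3 (31.0 ± 3.14) lay just under that median and their libraries overlapped. Pdgfra (18.6 ± 1.76), S100b (15.4 ± 3.22) and Gfap (13.9 ± 1.67) formed a lower group, with overlap between Pdgfra and S100b and between S100b and Gfap. Aqp4 came last at 4.05 ± 1.70 CPM, from 5, 8, 12 and 15 counts, above 3.38% of promoters. Olig2 and Fabp7 thus stood high in these dorsal cells, while the late astrocyte markers Gfap, S100b and Aqp4 ranked in the lower part of all promoters.

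**Figure D1:**
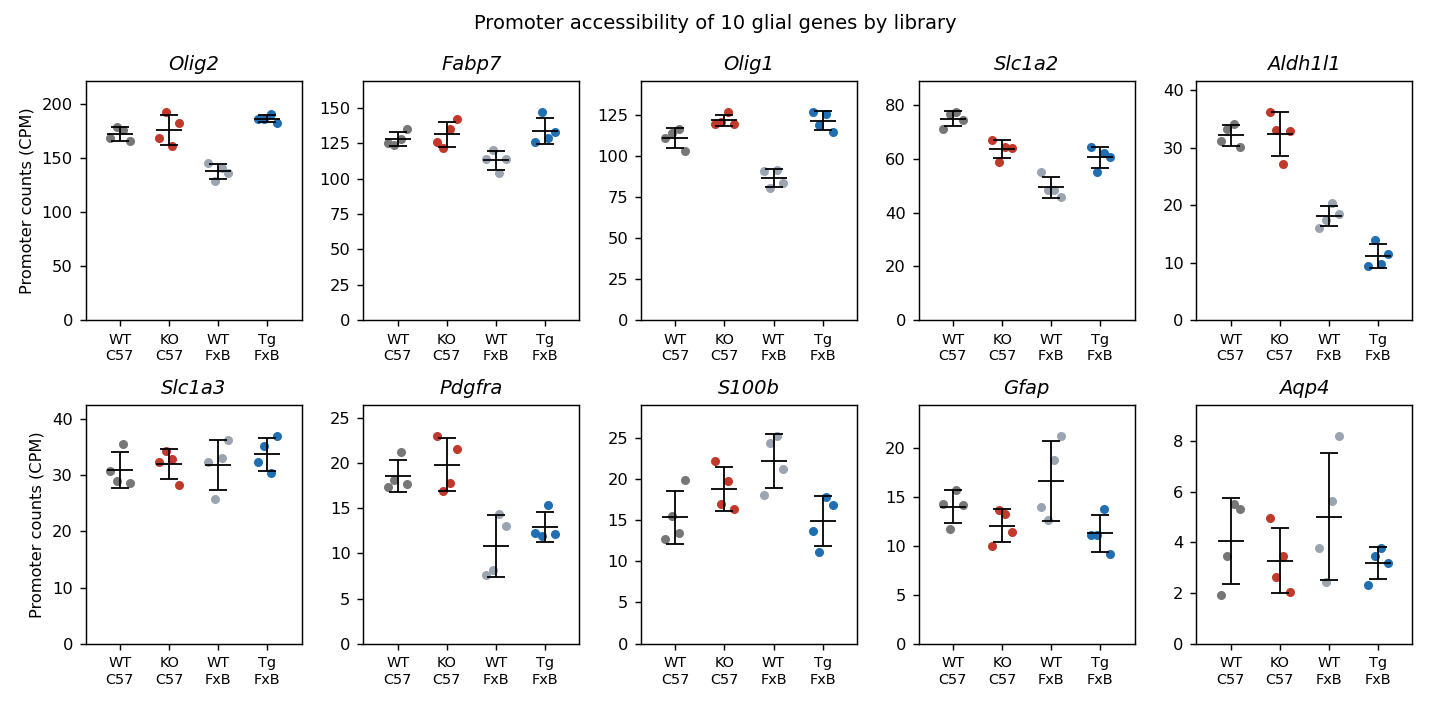
Accessibility of the 10 promoters (CPM, TMM-scaled) in each of the 16 libraries, by group, with the group mean and its SD in black (n = 4; C57 is C57BL/6, FxB is FVB x BALB/c). Olig1 and Olig2 are lowest in WT FVB x BALB/c, and Aldh1l1 has means of 32.2 CPM in WT C57BL/6, 18.1 in WT FVB x BALB/c, and 11.1 for Tg.

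Loss of Kat6b left all 10 glial promoters uncalled. None passed the edgeR quasi-likelihood test at an adjusted p under 0.05, where 3.99% of the 20008 tested promoters did (2.09% higher, 1.90% lower), and with DESeq2 the count was also 0. At an unadjusted p under 0.05 there were 2, Olig1 and Slc1a2, against 17.2% of all promoters. The median log2 change of the 10 was 0.04, beside -0.01 over all promoters. The groups did not overlap at 2 promoters, Olig1 (higher in KO) and Slc1a2 (lower in KO), beside 10.0% of all promoters.

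Slc1a2, the glutamate transporter gene, had 71.3, 76.8, 77.4 and 74.4 CPM in WT C57BL/6 and 67.0, 59.0, 64.3 and 64.2 in KO. All 4 KO libraries lay under all 4 WT libraries. The log2 change was -0.23 (SE 0.08, 95% interval -0.39 to -0.07; edgeR adjusted p = 0.0806), and it passed when libraries were scaled by their totals (-0.26) or with offsets that follow abundance (-0.27). Olig1 had 111, 114, 117 and 103 CPM in WT C57BL/6 and 120, 121, 127 and 120 in KO, a log2 change of 0.13 (SE 0.07, edgeR adjusted p = 0.275). Every KO library stood above every WT library, by as little as 120 against 117. At Olig2 the WT libraries had 168, 178, 176 and 165 CPM and the KO libraries 168, 192, 161 and 182, so the groups overlapped fully. The interval of its log2 change, -0.07 to 0.16, leaves room for only a small difference in either direction.

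The KO groups overlapped at the remaining promoters too. Fabp7 changed by 0.03 on the log2 scale (95% interval -0.09 to 0.16), Slc1a3 by 0.05 (-0.18 to 0.28) and Aldh1l1 by 0.03 (-0.20 to 0.26). Intervals were wider at the low promoters: 0.12 for the growth factor receptor gene Pdgfra (-0.18 to 0.41), 0.28 for S100b (-0.04 to 0.59), -0.23 for Gfap (-0.58 to 0.13) and -0.28 for Aqp4 (-0.97 to 0.41). The Aqp4 interval, the widest, takes in changes larger than those estimated at the other 9 members.

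In Tg, 7 of the 10 promoters were called, 4 higher and 3 lower, where 57.3% of all promoters were called (26.9% higher, 30.5% lower), so the share of members called was not far from that of promoters in general. The oligodendrocyte factors Olig1 and Olig2, the radial glial gene Fabp7 and the transporter gene Slc1a2 rose, and the astrocyte genes Aldh1l1, S100b and Gfap fell. The median log2 change was 0.17 over the 10 and -0.10 over all promoters. Groups did not overlap at 5 members (Olig1, Olig2 and Fabp7 higher, Aldh1l1 and S100b lower), beside 45.3% of all promoters.

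Olig2 stood at 145, 128, 140 and 136 CPM in WT FVB x BALB/c and at 186, 186, 190 and 182 in Tg. The Tg libraries were all above the WT libraries. The rise was 1.35-fold (log2 change 0.43, SE 0.06, edgeR adjusted p = 7.2e-11). Olig1, its neighbour on chromosome 16, rose from 90.8, 80.7, 91.8 and 83.5 to 127, 119, 126 and 115 CPM, also without overlap (log2 change 0.48, SE 0.07, edgeR adjusted p = 3.3e-10). Both calls held under every scaling, tool and omission of a library that was tried, with log2 changes of 0.19 to 0.85 at Olig2 and 0.26 to 0.90 at Olig1. In Tg the pair stood at levels near those of the C57BL/6 groups: 186 ± 3.40 CPM at Olig2 beside 172 ± 6.37 in WT C57BL/6, and 122 ± 5.75 at Olig1 beside 111 ± 6.10. The level of WT FVB x BALB/c enters both this rise and the strain difference given below, so they are not independent.

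Fabp7 stood at 114, 120, 104 and 114 CPM in WT FVB x BALB/c and at 126, 147, 129 and 133 in Tg, without overlap (log2 change 0.24, SE 0.06, edgeR adjusted p = 9.5e-04). Slc1a2 stood at 55.0, 48.5, 48.3 and 45.8 against 64.3, 55.0, 62.3 and 60.8, where the lowest Tg library reached the highest WT library (0.27, SE 0.09, edgeR adjusted p = 0.00437). Both of these smaller rises lost their call with library totals (0.12 and 0.16), with offsets that follow abundance (0.00 and 0.14) and after thinning all libraries to the smallest total (0.14 and 0.25).

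Aldh1l1, the folate enzyme gene, fell the most of the 10. It had 16.1, 17.5, 20.4 and 18.5 CPM in WT FVB x BALB/c and 9.33, 13.9, 9.72 and 11.5 in Tg, with no overlap. That is 0.618-fold of the WT level (log2 change -0.69, SE 0.16, edgeR adjusted p = 9.6e-05). S100b, the calcium-binding protein gene, had 18.0, 24.4, 25.2 and 21.2 CPM in WT and 13.7, 11.1, 17.8 and 16.8 in Tg, where the highest Tg library lay just under the lowest WT library (-0.55, SE 0.15, edgeR adjusted p = 8.3e-04). Gfap had 13.9, 12.6, 18.7 and 21.2 CPM against 11.1, 11.1, 13.7 and 9.14, and its groups overlapped (-0.50, SE 0.17, edgeR adjusted p = 0.00895).

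The 3 uncalled promoters had values on both sides. Pdgfra stood at 7.59, 8.15, 14.4 and 13.0 CPM in WT FVB x BALB/c and at 12.2, 11.9, 15.4 and 12.1 in Tg. The WT libraries were split between low and high values, so that the log2 change of 0.34 (95% interval -0.02 to 0.69; edgeR adjusted p = 0.106) became 0.52 and passed without WT FVB x BALB/c library 3 and was 0.16 without library 1. Slc1a3 was at 31.8 ± 4.45 and 33.7 ± 2.90 CPM (log2 change 0.10, 95% interval -0.11 to 0.32), and Aqp4 at 5.03 ± 2.50 and 3.20 ± 0.629 (-0.51, 95% interval -1.16 to 0.13).

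**Figure D2:**
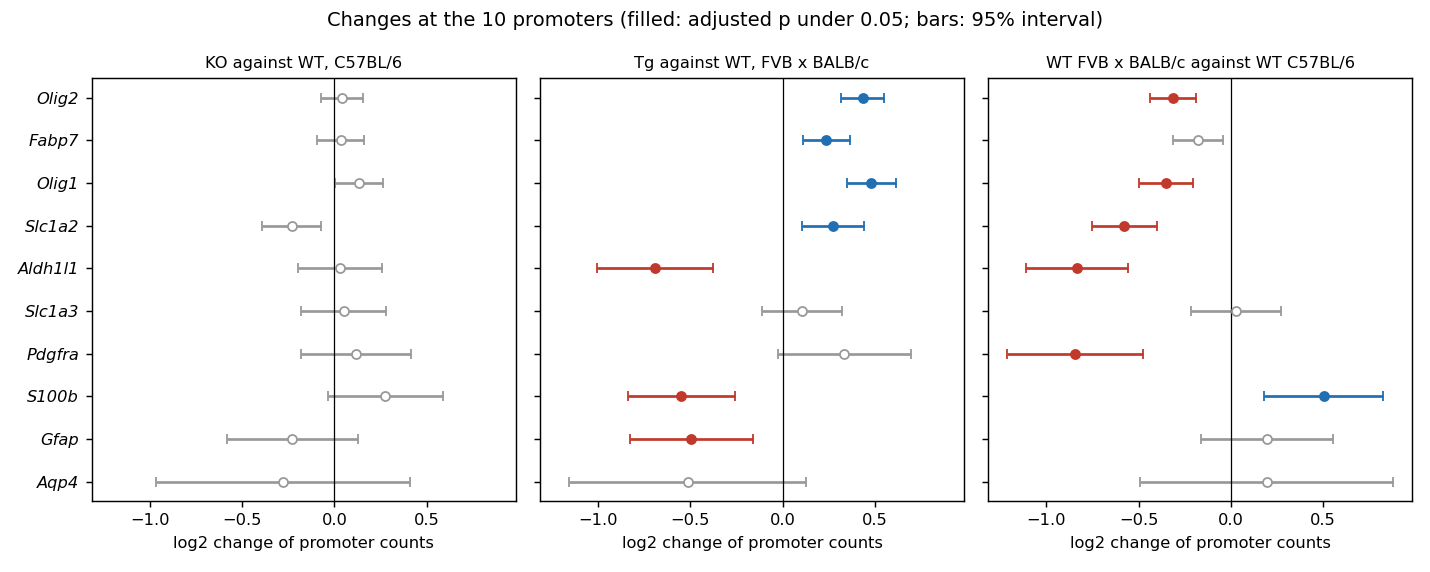
Log2 change of each of the 10 promoters with its 95% interval in the KO, Tg and strain comparisons, with filled points where the adjusted p is under 0.05. No KO point is filled, and in Tg the points of Olig1 and Olig2 lie to the right of 0 and those of Aldh1l1, S100b and Gfap to the left.

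The direction of the Tg change followed how accessible a promoter was among all promoters, and the members did not all keep to it. All tested promoters were put in 4 bins of 5002 by mean accessibility. In the highest bin, which holds Olig1, Olig2 and Fabp7, 63.6% of all promoters were called higher and 10.2% lower. The next bin, with Slc1a2, had 38.5% higher and 20.1% lower. In the bin under it, with Slc1a3, Pdgfra, Aldh1l1, S100b and Gfap, 4.72% were called higher and 40.3% lower, and in the lowest, with Aqp4, 0.640% and 51.2%. The median log2 change of these bins ran from -0.59 in the lowest through -0.27 and 0.12 to 0.25 in the highest. Beside the median of its bin, Olig2 (0.43) and Olig1 (0.48) stood above 0.25 and Fabp7 (0.24) at it, while Aldh1l1 (-0.69), S100b (-0.55) and Gfap (-0.50) stood under -0.27 and Slc1a3 (0.10) and Pdgfra (0.34), in the same bin, above it. Slc1a2 (0.27) stood above the 0.12 of its bin and Aqp4 (-0.51) above the -0.59 of the lowest. The bin medians in KO ran the same way over a smaller span, from -0.21 in the lowest through -0.04 and 0.03 to 0.05. Aqp4 in KO (-0.28) lay near the -0.21 of its bin. Between the wild-type groups the bin medians ran the other way, from 0.19 through 0.08 and -0.03 to -0.08 in FVB x BALB/c against C57BL/6. Promoters poor in CpG, the class of 7 of the 8 members with a sequence, were lower in Tg in 46.9% of cases and higher in 7.5%, and CpG-rich promoters such as that of Olig2 were lower in 14.9% and higher in 46.5%. Of these 7, Aldh1l1, S100b and Gfap fell, Fabp7 and Slc1a2 rose, and Slc1a3 and Pdgfra had positive values that were not called. The Slc1a2 and Pdgfra sequences start inside the gene boundary, so the CpG class of their counted windows is not known.

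The split into higher and lower members depended on scaling. When promoters were scaled by the effective totals of gene ends (totals times their TMM factors, gene-end scaling below), the median of all promoters in Tg moved from -0.10 to 0.32, with 9967 promoters higher and 1312 lower, and the members called were 6, all higher: Olig1, Olig2, Fabp7, Slc1a2, Slc1a3 (0.51) and Pdgfra (0.74). Under that scaling Aldh1l1 (-0.28), S100b (-0.14) and Gfap (-0.08) were still below 0 but lost their calls. With library totals the median was -0.21 and the split of all promoters 3705 higher and 8209 lower. With offsets that follow abundance, which set the trend itself to 0, the calls that stood were Olig1, Olig2 and Aldh1l1, Pdgfra joined them (0.64), and S100b (-0.29) and Gfap (-0.15) dropped out. Gfap also lost its call after thinning (-0.48).

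**Figure D3:**
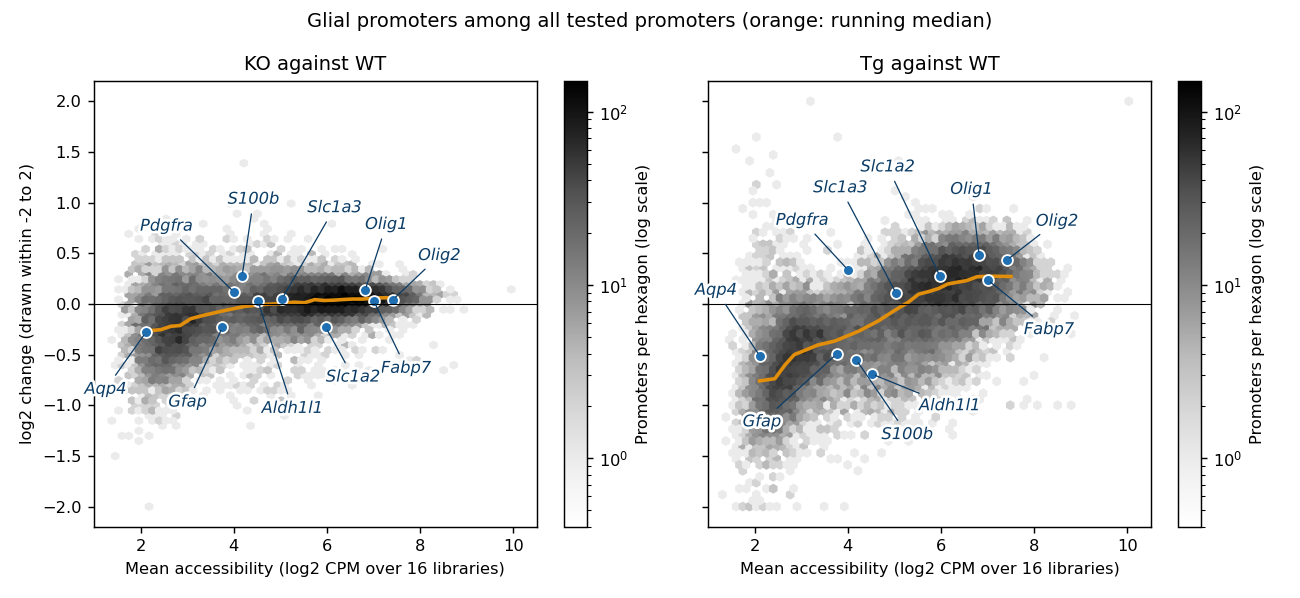
Log2 change against mean accessibility (log2 CPM over 16 libraries) for all tested promoters, with the 10 members in blue and a running median in orange. In Tg the median climbs from low to high accessibility and Olig1 and Olig2 lie above it, Aldh1l1 and S100b under it. In KO the median climbs less, and the members lie between -0.28 at Aqp4 and 0.28 at S100b.

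The wild-type groups on the 2 backgrounds differed at 6 of the 10 promoters, where 18.7% of all promoters were called (6.98% higher and 11.8% lower in FVB x BALB/c). Each wild-type group is also a control above, so these values are not independent of the KO and Tg changes. Olig1, Olig2, Pdgfra, Slc1a2 and Aldh1l1 were lower in FVB x BALB/c, and S100b was higher. In the highest accessibility bin, with Olig1 and Olig2, 24.2% of all promoters were called lower, and in the next, with Slc1a2, 13.0%. The bin of Pdgfra, Aldh1l1 and S100b had 8.84% lower and 10.3% higher. The median log2 change of the 10 was -0.25, beside 0.02 over all promoters.

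Aldh1l1 had 31.2, 33.2, 34.1 and 30.1 CPM in WT C57BL/6 and 36.2, 33.1, 27.1 and 33.0 in KO. Both groups stood well above the 16.1 to 20.4 CPM of WT FVB x BALB/c. The strain difference was 0.561-fold (log2 change -0.83, SE 0.14, edgeR adjusted p = 6.8e-07). Pdgfra, at 17.3, 18.1, 21.2 and 17.7 CPM in WT C57BL/6, was 0.557-fold in FVB x BALB/c (-0.84, SE 0.19, edgeR adjusted p = 2.1e-04), and Slc1a2 was 0.670-fold (-0.58, SE 0.09, edgeR adjusted p = 5.6e-08). Neither gene's wild-type libraries overlapped between backgrounds.

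Olig2 was lower by a log2 change of -0.32 (SE 0.06, edgeR adjusted p = 4.1e-05) and Olig1 by -0.35 (SE 0.07, edgeR adjusted p = 1.1e-04), again with no overlap. Fabp7 was lower by -0.18 without overlap but missed the threshold (SE 0.07, edgeR adjusted p = 0.0583), and it passed without WT FVB x BALB/c library 2 (-0.21). S100b, at 12.7, 15.5, 13.4 and 19.8 CPM in WT C57BL/6, was higher in FVB x BALB/c by 0.50 (SE 0.16, edgeR adjusted p = 0.0179) with overlapping libraries. That call was lost with DESeq2, with gene-end scaling, and without WT C57BL/6 library 1 (0.41) or 3 (0.45) or WT FVB x BALB/c library 2 (0.45) or 3 (0.43). Differences in sequence between strains, which can change how many reads align, were not examined.

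The effect of the knockout minus that of the transgene was tested directly, in a contrast of 4 groups that share no library between the 2 effects. It differed from 0 at 5 of 10 promoters, beside 29.6% of all promoters. In the highest accessibility bin, with Olig1 and Olig2, 43.1% of all promoters were called lower and 7.54% higher. The next bin, with Slc1a2, had 21.7% lower and 15.1% higher. The bin of S100b and Aldh1l1 had 2.68% lower and 19.8% higher. At Olig2 the KO change of 0.04 and the Tg change of 0.43 differed by -0.39 (SE 0.08, edgeR adjusted p = 6.6e-05), and at Olig1 the changes of 0.13 and 0.48 differed by -0.35 (SE 0.10, edgeR adjusted p = 0.00253), although not with offsets that follow abundance (-0.17). At Slc1a2 the changes had opposite signs, -0.23 in KO and 0.27 in Tg, and differed by -0.51 (SE 0.12, edgeR adjusted p = 3.0e-04). S100b (0.28 and -0.55) and Aldh1l1 (0.03 and -0.69) differed the other way, by 0.83 (SE 0.22, edgeR adjusted p = 0.00139) and 0.72 (SE 0.20, edgeR adjusted p = 0.00223). These 2 calls were lost with gene-end scaling (0.51 and 0.39). The effects were measured on different backgrounds, so genotype and strain cannot be told apart in this difference.

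At gene ends, where a window is 1001 bp long, none of the 10 genes was called in any comparison by edgeR, and none by DESeq2. After thinning all libraries to the smallest total, some member windows no longer passed the filter on low counts and were not tested. Of the gene ends still tested, 1 was called, Fabp7 in Tg (log2 change -1.14, edgeR adjusted p = 0.0330). The shares of all 15186 tested gene ends were 1.53% in KO, 6.24% in Tg, 2.61% for the difference and 3.25% between strains. At an unadjusted p under 0.05 the counts of members were 1, 3, 0 and 0, against 9.19%, 15.6%, 11.1% and 12.0% of gene ends. Member gene ends held 4 to 50 counts per library, so only large changes could be seen.

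Olig2 and Olig1, short genes in which the gene end lies near the promoter, had the most accessible gene ends in Tg. Olig2 stood at 76.5, 66.7, 57.7 and 71.4 CPM in WT FVB x BALB/c and at 103, 107, 85.4 and 106 in Tg, without overlap (log2 change 0.55, SE 0.20, edgeR adjusted p = 0.0866). Olig1 stood at 81.9, 69.8, 54.6 and 76.2 against 94.9, 84.3, 89.9 and 101, also without overlap (0.40, SE 0.21, edgeR adjusted p = 0.330). Gene-end groups did not overlap at 10.0% of all gene ends in that comparison. The Fabp7 gene end had values in the direction opposite to its promoter, with 51.9, 38.1, 48.6 and 57.1 CPM in WT and 29.0, 27.3, 38.2 and 31.7 in Tg (-0.60, SE 0.28, edgeR adjusted p = 0.247). The highest Tg library just passed the lowest WT library. At Gfap too the gene end and the promoter had opposite signs in Tg: its gene end stood at 27.3, 28.6, 39.5 and 23.8 CPM in WT and at 55.4, 49.6, 49.5 and 33.8 in Tg (0.61, SE 0.29, edgeR adjusted p = 0.258). The lowest Tg library fell among the WT libraries. Olig2, Fabp7 and Gfap were the 3 members at an unadjusted p under 0.05. In KO the Fabp7 gene end had a value of -0.50 (edgeR adjusted p = 0.586) and that of Slc1a3 a value of 0.51 (edgeR adjusted p = 0.479).

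Reads per base at the promoter over reads per base at the gene end show how far a promoter stands out from its own locus. The 95% intervals are exact binomial intervals of counts pooled within a group and cover counting error only. The counts are raw and both come from the same libraries, so depth shared by the 2 windows cancels. What enters every ratio is how large a library's promoter total is beside its gene-end total. Promoter totals were 4023140 to 5015408 in Tg and 1384643 to 3101439 in WT FVB x BALB/c. Gene-end totals were 398691 to 489743 and 198347 to 360958. Relative to gene-end totals, promoter totals were larger in each Tg library than in each WT FVB x BALB/c library. A difference in ratio between groups is thus not shown to be particular to a gene. In WT C57BL/6 the ratio was 12.8 at Slc1a2 (8.83 to 19.2), 10.6 at Olig2 (8.47 to 13.4), 9.63 at Fabp7 and 5.34 at Olig1 (4.36 to 6.60). It was 3.60 at Aldh1l1, 2.47 at Pdgfra, 2.46 at Slc1a3, 1.54 at S100b and 1.41 at Gfap. Aqp4, at 0.741 (0.444 to 1.26), had no more reads per base at its promoter than at its end. The Fabp7 ratio was 14.8 (11.4 to 19.7) in KO, 9.01 (6.93 to 11.9) in WT FVB x BALB/c, and 21.4 (16.4 to 28.6) for Tg. The Aldh1l1 ratio was 3.60 (2.62 to 5.06) in WT C57BL/6, 1.75 (1.26 to 2.47) in WT FVB x BALB/c, and 1.35 (1.03 to 1.80) for Tg. Pdgfra was at 1.04 (0.727 to 1.52) in WT FVB x BALB/c, where promoter and end had like numbers of reads per base.

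**Figure D4:**
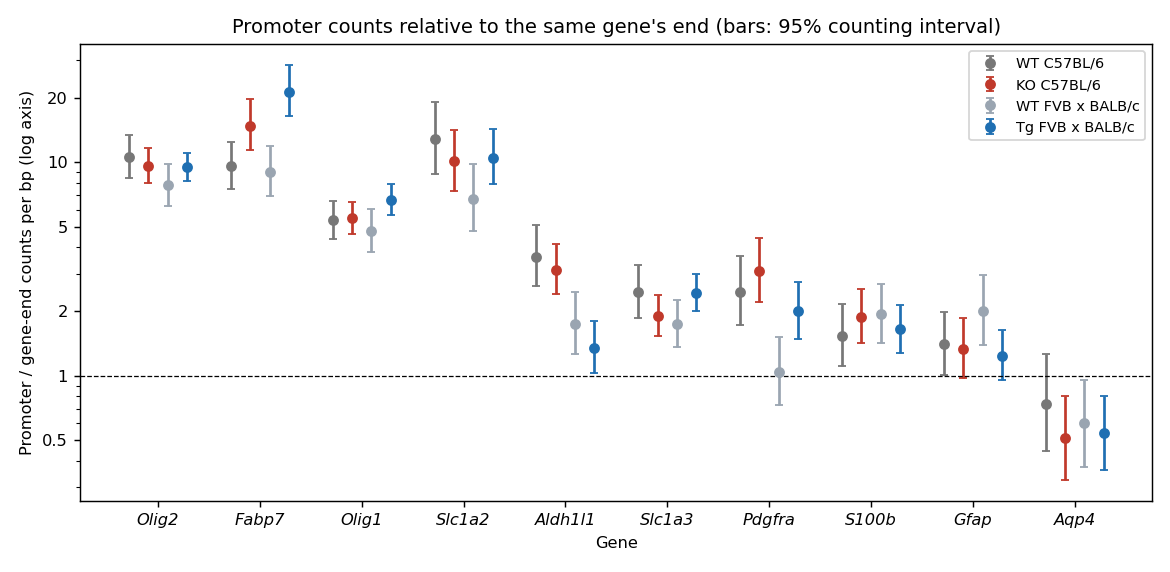
Reads per base at the promoter over reads per base at the gene end (log axis) for the 10 genes in each group, with 95% counting intervals of the pooled counts. Slc1a2, Olig2, Fabp7 and Olig1 stand well above 1, Gfap and S100b near 1 to 2, and Aqp4 at or under 1.

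The 10 promoters differed in how much they varied. Over the 16 libraries the SD of log2 CPM was 0.68 at Aldh1l1, 0.57 at Aqp4 and 0.46 at Pdgfra, beside a median of 0.24 over all promoters, and it was lowest at Slc1a3 (0.15) and Fabp7 (0.12). Patterns were compared by the root mean square difference of mean-centred log2 CPM over the 16 libraries, as a description, against 20007 other promoters. Olig1 and Olig2 differed by 0.09, and 0.175% of promoters were closer to Olig1 than Olig2 was. The closest to Olig1 were Spred1 and Khdc4 (both 0.06), to Olig2 Ddx20 and Rassf8 (both 0.06), and to Fabp7 Ecsit (0.05) and Aars (0.06). Slc1a2 was closest to Fgfr2 (0.09) and Fam161a (0.10). Aldh1l1, the most variable member, was closest to Pax6 and Lipo3 (both 0.19), and Pdgfra to Sil1 (0.19) and Nell1 (0.22).

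Other genes of the same lineages were read from lists of 28 astrocyte and radial glia genes and 25 oligodendrocyte lineage genes. In KO, 1 of the 28 promoters was called, that of the astrocyte gene Ndrg2, which fell (log2 change -0.46, SE 0.10, edgeR adjusted p = 5.3e-04). Of the 25, the promoter of the myelin gene Opalin rose (0.51, SE 0.14, edgeR adjusted p = 0.0192) and that of the adhesion gene Cntn1 fell (-0.32, SE 0.08, edgeR adjusted p = 0.00275). The shares of all promoters were 2.09% higher and 1.90% lower. The medians were 0.08 and -0.04.

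In Tg, 13 of the 28 astrocyte and radial glia promoters rose and 5 fell, with a median of 0.16, where 26.9% of all promoters were called higher and 30.5% lower. The 13 rises all lay in the highest accessibility bin and the next, where 63.6% and 38.5% of all promoters were called higher. The rises were led by the sodium pump subunit gene Atp1b2 (0.73), Ndrg2 (0.65), the glial fate factor Sox9 (0.63), the progenitor filament gene Nes (0.63), the factor Nfib (0.58) and the matrix gene Bcan (0.51). The falls were Gja1, which encodes the astrocyte gap junction protein connexin 43 (-0.61), Sparcl1 (-0.38), the outer radial glia gene Hopx (-0.36), the matrix gene Tnc (-0.32) and Cd44 (-0.27). Of the 25 oligodendrocyte lineage promoters 6 rose and 7 fell, with a median of -0.11, so the shares called were near those of all promoters. The rises were the lineage factor genes Sox8 (0.69) and Nkx2-2 (0.63), and Gpr17 (0.44), Cnp (0.32), Lhfpl3 (0.30) and Cspg4 (0.27). The largest falls were the ventral factor gene Nkx2-1 (-0.86), the myelin genes Mog (-0.66) and Ermn (-0.60), Nkx6-2 (-0.56), Bcas1 (-0.47) and Cntn1 (-0.46).

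Between strains, 3 of the 28 were higher in FVB x BALB/c (Itih3 by 0.81, Aldoc by 0.60 and Sparcl1 by 0.42) and 8 lower, with a median of -0.16, where 6.98% of all promoters were called higher and 11.8% lower. The largest of the 8 were Acsbg1 (-0.74), Mlc1 (-0.50), Nes (-0.49), Sox9 (-0.49), Glul, which encodes glutamine synthetase (-0.37), and Nfib (-0.37). Of the 25, Gpr17 (0.94), Opalin (0.91), Nkx6-2 (0.40), Myrf (0.35) and Cspg4 (0.34) were higher, and Nkx2-2 (-1.28), Gsx2 (-0.76), Sox8 (-0.39) and Tcf7l2 (-0.22) lower, with a median of 0.05. The neural progenitor markers differed alongside: in Tg 7 of 9 were higher and 1 lower, and between strains 1 was higher and 6 lower, beside the same shares of all promoters. Vim and Nes are in this list and also among the 28, so the lists are not separate. The markers' part in the glial values was not tested.

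**Figure D5:**
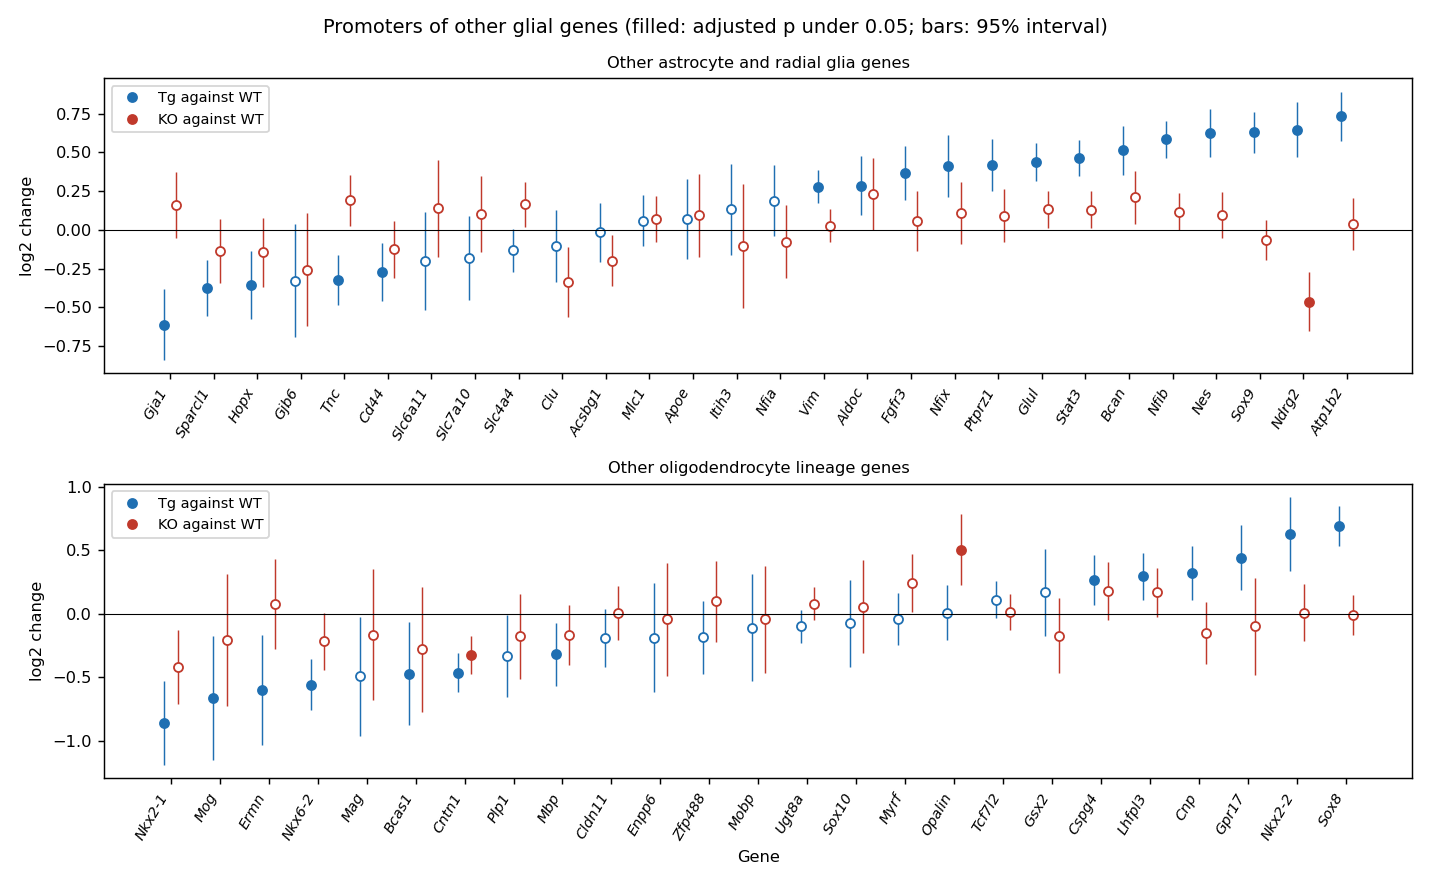
Promoter log2 changes of the 28 other astrocyte and radial glia genes and the 25 other oligodendrocyte lineage genes in Tg (blue) and KO (red), each with its 95% interval, ordered by the Tg change and filled where the adjusted p is under 0.05. In KO the filled points are Ndrg2, Cntn1 and Opalin, and Tg changes spread from -0.86 at Nkx2-1 to 0.73 at Atp1b2.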

How the data were processed

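Chromatin accessibility was measured by ATAC-seq in 16 mouse libraries, 4 embryos in each of 4 groups, so the spread behind each p-value is that between cultured embryos of a group. The deposited values are raw read counts, 1 whole number per library for each promoter and each gene end. Counting used featureCounts on the build mm39, per the submitters' processing notes. The aligner, the transposase offset, duplicate and multi-mapping treatment and any use of the Drosophila S2 spike-in are not stated by the labels, so near-identical copies could share reads. Gene IDs were named through a RefSeq table (20091 of 20113 matched), and promoter sequences came from RefSeq GRCm38.p6.

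In each table, 17 windows (chromosome Y, Xist and Tsix) were left out, low counts were filtered with filterByExpr (20008 promoters and 15186 gene ends remained) and libraries were scaled with TMM factors. All 16 libraries entered a single edgeR 4.0.16 quasi-likelihood fit per table (robust; limma 3.58.1, R 4.3.3) with a coefficient per group. Contrasts were adjusted by Benjamini-Hochberg over all windows tested, with a threshold of 0.05, and tests are two-sided. The tool was tested on simulated data. CPM are counts scaled to TMM library size, and accessibility bins are 4 equal bins of mean log2 CPM. The median tested window held 49 to 158 counts per library at promoters and 8 to 17 at gene ends. All replicate pairs differed beyond sampling noise (chi-square at least 1.05 times its degrees of freedom at promoters and 1.04 times at gene ends), so no library was counted as a duplicate.

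The 10 genes, the other glial lists, the marker lists and the tests were chosen with earlier results of these data known. All members are named. An item of the other glial lists was left out after the fit and is not reported here. Of the other glial promoters that passed, at most 6 per direction, list and comparison are named by size. The 2 most alike promoters are named for members the results turn on. Alternatives were DESeq2 1.42.0 and its size factors, library totals, scaling by effective gene-end totals, offsets that follow abundance, no filter, only the compared groups, the sample number as a block, thinning and leaving out each library.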

Additional observations from a re-analysis of the deposited data

Results flagged for a closer look

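The Olig1 promoter had a KO library apart from the others of its group: library 3 stood at 127 CPM and the other 3 at 120 to 121, a gap of 0.857 of the group's range. The Pdgfra promoter had a Tg library apart, library 3 at 15.4 CPM against 11.9 to 12.2, a gap of 0.914 of the range. Both gaps were computed on CPM rounded to 3 significant digits, and both pass the 95% critical value of Dixon's test for 4 samples. These were 2 of 80 groups examined, and chance marks about 1 in 20.

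At 5 promoters the KO effect on C57BL/6 and the Tg effect on FVB x BALB/c differed in a direct test of KO effect minus Tg effect (edgeR, all with an adjusted p under 0.05). The differences in log2 change were 0.83 at S100b, 0.72 at Aldh1l1, -0.51 at Slc1a2, -0.39 at Olig2 and -0.35 at Olig1. Beside these 5 of 10 members, 29.6% of all promoters passed the same test. That share differed between accessibility bins, as given above.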

How the results depend on the processing

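No called change turned its direction under any alternative. Members called neither in the reported fit nor under an alternative were not compared by direction.

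KO promoter calls numbered 798, and 427 with DESeq2, 319 after thinning and 360 with gene-end scaling. Members called in KO went from 0 to 1 (Slc1a2, lower) with library totals and with offsets that follow abundance. Tg promoter calls numbered 11470, and 7219 with offsets that follow abundance and 7297 after thinning, where members called went from 7 to 4 in both. Calls of the difference numbered 5926, and 3317 after thinning. Strain calls numbered 3749, and 2424 after thinning and 5969 with gene-end scaling (427 higher, 5542 lower, against 1397 and 2352). The strain split was 1891 higher and 1763 lower with library totals and 1592 and 1740 with offsets that follow abundance. KO splits were 299 and 468, and 269 and 430, under the same alternatives, against 418 and 380. At gene ends, offsets that follow abundance gave 584 calls in Tg (948 as reported) and 254 for the difference (396), and thinning gave 1 member call in Tg, Fabp7 (-1.14). The cause was not tested, and thinning was a single random draw in which some member windows failed the filter on low counts. The KO minus Tg difference at Fabp7 passed with DESeq2 size factors (-0.23), gene-end scaling (-0.53) and without KO library 4 (-0.25), and the strain difference at Fabp7 passed with gene-end scaling (-0.38).

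With 1 library left out, promoter calls ranged from 537 to 740 in KO, 10165 to 11242 in Tg, 2990 to 3535 between strains and 5311 to 6229 for the difference. Members called ranged from 0 to 0, 7 to 8, 5 to 6 and 5 to 6. Gene-end calls ranged from 136 (without WT C57BL/6 library 4) to 234 in KO, where 232 were reported, 789 to 934 in Tg, 391 to 539 between strains and 298 to 461 for the difference.

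Sample numbers do not pair the libraries: deviations of same-numbered libraries correlated between -0.110 and 0.180 at promoters. With the sample number as a replicate block, promoter calls were 763 in KO, 11523 in Tg, 3797 between strains and 5951 for the difference, and the counts of members called did not change.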

Other observations

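Gene ends of the other glial genes were measured as well, and 26 of the 28 astrocyte and radial glia genes and 19 of the 25 oligodendrocyte lineage genes passed the filter there. In Tg the gene ends of Sox8 (log2 change 1.19) and Cnp (0.43), genes of the oligodendrocyte lineage, and of the astrocyte and progenitor genes Aldoc (0.94) and Bcan (0.81) rose, and that of the filament gene Vim fell (-0.93), with edgeR adjusted p-values under 0.05. Of all tested gene ends, 4.54% were called higher in Tg and 1.70% lower. The promoters of these 5 genes were all called higher in Tg, where 26.9% of all promoters were, so Vim was called in opposite directions at its promoter (0.28) and its end. In KO the gene ends of Cnp, which encodes a myelin enzyme (1.23), and Nes (0.58) rose, beside 0.672% of all gene ends higher and 0.856% lower. Between the wild-type groups Cnp was higher in FVB x BALB/c (1.72), and Bcan (-1.12 on the log2 scale) and Sox8 (-0.89) were lower. The shares of all gene ends there were 1.16% higher and 2.09% lower. The strain and Tg comparisons share the WT FVB x BALB/c libraries.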
